A study of Mus musculus with 8 samples.

Results

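Lung RNA of DDAH1-transgenic mice given house dust mite extract (HDM) was compared by RNA-Seq with that of wild type mice given the same extract. The comparison used the 4 libraries whose labels give HDM as the treatment, out of 8 libraries in the series. The members were all genes that passed a low-count filter in these 4 libraries, which left 15191 of 23469 genes in the count table. The wild type and the DDAH1-transgenic mice had the C57BL/6 background, and both groups received HDM into the trachea at a dose of 100 µg, carried in 50 µl PBS, 3 times per week for 3 weeks, with the lungs taken 24 hours after the last challenge. The other 4 libraries came from mice of both genotypes that received 50 µl of PBS, also 3 times per week for 3 weeks. The age and the sex of the mice and the promoter of the transgene are not given in the sources used here. The RNA of 4 mice went into 1 pool per group, and both libraries of a group were made from that pool. The spread between replicates is therefore technical, and no p-value below covers the variation between mice. Counts came to 10897901 and 10624006 in the wild type libraries and to 5694928 and 11492478 in the DDAH1-transgenic libraries, so that DDAH1-transgenic replicate 1 was the shallowest.

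DDAH1 breaks down asymmetric dimethylarginine (ADMA), a methylated arginine that inhibits the nitric oxide synthases, and mice that carry extra DDAH1 are used to lower ADMA. HDM is an inhaled allergen that raises a type 2 response in the lung, in which IL-4 and IL-13 drive mucous cell change in the airway epithelium and alternative activation of macrophages. The question put to these libraries is which genes differ between the genotypes once both have been exposed to the allergen. In whole lung, fewer cells of a type and less RNA per cell cannot be told apart.

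Ddah1 itself (Entrez 69219, chromosome 3 from 145758692 to 145894277) had 482 and 445 against 233 and 431 counts in wild type against DDAH1-transgenic libraries. Scaled to the normalized library size (CPM), this was 45.1 and 46.9 against 38.02 and 35.5 CPM, so that both DDAH1-transgenic libraries lay below both wild type libraries (log2 fold change -0.32, standard error 0.29, adjusted p = 0.637). Here and below a log2 fold change is DDAH1-transgenic over wild type, and p-values are those of the quasi-likelihood test in edgeR, adjusted (Benjamini-Hochberg) for all genes tested, and a gene was called when its adjusted p was under 0.05. The difference did not pass the test. In the PBS-treated groups it was at 47.8 and 34.3 against 77.0 and 53.8 CPM (log2 fold change 0.67, standard error 0.28), and the difference between the treatments did not pass the test (-1.04, adjusted p = 0.216). No rise of Ddah1 was measured under HDM, so in these libraries the gene does not check the genotype labels, and DDAH1-transgenic libraries are here those labelled so. The sequence of the transgene is not given in the sources used here, and a transgene that differs from mouse Ddah1 need not add to these counts. Ddah2, the other DDAH gene, had 15.5 and 18.2 against 22.8 and 17.1 CPM (log2 fold change 0.24, standard error 0.41, adjusted p = 0.829), and its groups overlapped. Xist, the RNA that coats the inactive X, was at 2936 and 2812 CPM in the wild type libraries and 3313 and 2179 CPM in the DDAH1-transgenic libraries, and Ddx3y of the Y chromosome had 2 or 3 counts in each of these libraries.

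Of the 15191 genes tested, 279 had higher values in the DDAH1-transgenic libraries (1.84%) and 91 had lower values (0.599%). These 370 genes had no overlap between the groups, and neither did 7294 genes in all, or 48% of those tested. The median log2 fold change over all genes was 0.01. Outside the study's short lists of top genes for this comparison, of 60 lower and 60 higher genes, 224 genes were higher and 37 were lower. A longer list of the study was not used here, so these genes need not lie outside it. The number of calls rested on single libraries. With wild type replicate 1 left out 6 genes passed, and with wild type replicate 2 left out 20 did. When DDAH1-transgenic replicate 1 was the library removed the number was 612, and for replicate 2 of that group it was 1595. The sign of all 370 genes was the same in each of these 4 fits. With no overlap between the groups this outcome is largely set, so it is not further support. Flrt2, Lars2, Mir5109, Rn45S and Scgb3a2 passed the threshold in each of them, and every other call was lost without at least 1 of the wild type libraries.

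The genotype difference moved with the length of the transcript. Among 934 genes with a transcript under 1000 bases the median log2 fold change was 0.70, and 120 of them were higher (12.8%) while 4 were lower (0.428%). Between 1000 and 2000 bases the median was 0.30 over 3017 genes, and between 2000 and 4000 bases it was 0.02 over 5922 genes. Longer transcripts were below 0, with a median of -0.16 over 3871 genes of 4000 to 8000 bases and of -0.25 over 710 genes of at least 8000 bases, of which 1 was higher and 8 were lower. Both DDAH1-transgenic libraries shared this order. In the shortest class the median deviation in log2 CPM from the mean of the 4 libraries was 0.245 in DDAH1-transgenic replicate 1 and 0.444 in replicate 2, against -0.379 and -0.239 in the wild type libraries. Across 14454 genes with a known length the Spearman correlation between log2 fold change and length was -0.28, a description over genes that share libraries. It was 0.06 for the difference between the wild type replicates and 0.05 for that between the DDAH1-transgenic replicates. In the PBS-treated groups the correlation was 0.02, and the medians of the same length classes lay between -0.01 and 0.04. Whether RNA quality or library preparation differed between the pools was not tested.

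**Figure D1:**
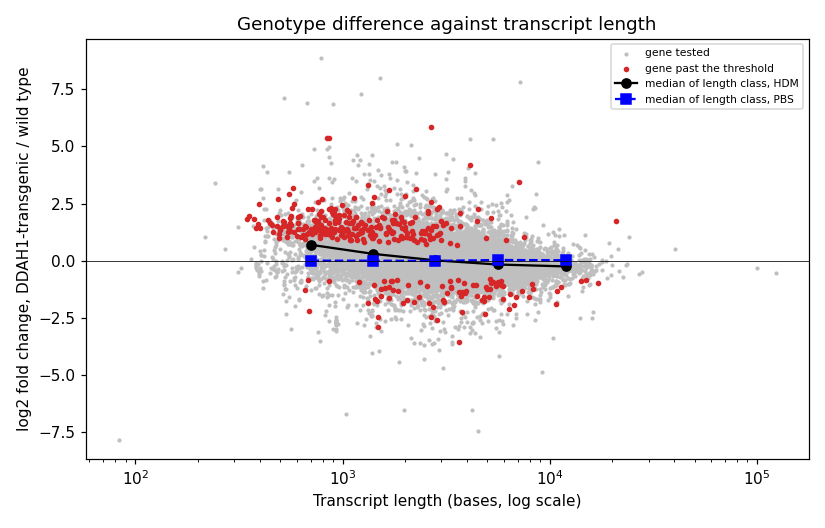
Log2 fold change of DDAH1-transgenic over wild type mice under HDM for each gene (y axis) against the length of its transcript in bases (x axis, log scale), with genes past the threshold in red. The black line joins the medians of the 5 length classes and falls from 0.70 to -0.25, while the dashed blue line of the PBS-treated groups stays between -0.01 and 0.04.

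To give the calls with length taken into account, the change of each library with transcript length was estimated by a loess curve and entered as an offset. With this length offset, the correlation with length fell to -0.02, and 90 of 14454 genes were higher (0.623%) and 76 were lower (0.526%). The median over all genes was 0.005. Of the 370 genes, 175 higher and 35 lower genes were no longer past the threshold, another 24 had no transcript length, and 136 passed in both fits. In both fits 87 genes were higher and 49 were lower, of which 53 and 16 lay outside these top lists. A further 3 higher and 27 lower genes passed with the offset alone. With the offset, the number of calls was 21 without wild type replicate 1, 19 without wild type replicate 2, 240 without DDAH1-transgenic replicate 1 and 999 when replicate 2 of that group was left out.

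**Figure D2:**
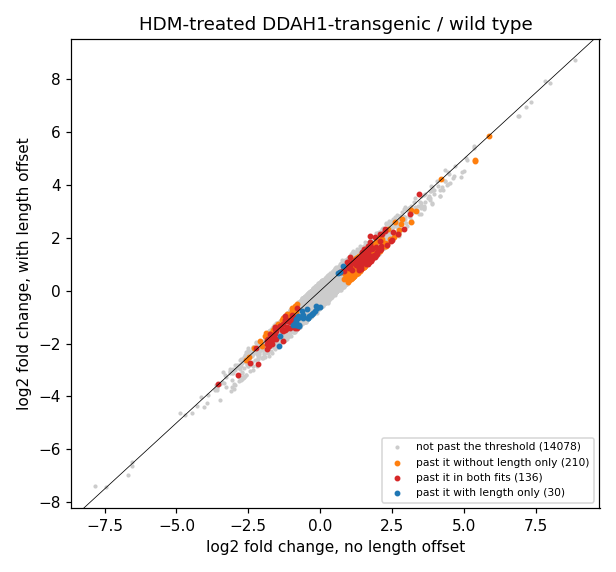
Log2 fold change under HDM with the length offset (y axis) against that without it (x axis), 1 point for each gene with a transcript length and the diagonal as a line. The 136 genes past the threshold in both fits are red, the 210 that passed without the offset only are orange and lie mostly on the higher side, and the 30 that passed with it only are blue.

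With the length offset, 11 genes passed the threshold with all 4 libraries and also whichever 1 of them was left out. They were chosen after their values had been seen. The 6 lower genes were Arg1, Cd74, Chil3, Chil4, Clca1 and Lars2, and the 5 higher genes were Flrt2, Fth1, H3f3a, Rps15a and Scgb3a2. Every other call with the offset was lost without at least 1 of the libraries. Arg1 (Entrez 11846, chromosome 10 from 24915207 to 24927470), the arginase that turns arginine into ornithine and urea, was at 99.7 and 95.7 CPM in the wild type libraries and 16.3 and 19.5 CPM in the DDAH1-transgenic libraries. Both wild type libraries were more than 4 times as high as either DDAH1-transgenic library (log2 fold change -2.44, standard error 0.28, adjusted p = 0.00151, and -2.75 with the offset, standard error 0.28, adjusted p = 0.0022). Chil3 and Chil4 are chitinase-like proteins of neighbouring genes on chromosome 3, made by alternatively activated macrophages and airway epithelium. Chil3 fell from 9343 and 9690.2 CPM to 3559.5 and 4647 CPM, and Chil4 from 1616 and 1560.0 to 485 and 602 CPM. They share 26.9% and 11% of their stretches of 50 bases with other transcripts, mainly each other's, so reads can be split between them. Clca1, a secreted product of goblet cells, was at 1849.6 and 1799 CPM in the wild type libraries and 642 and 754 CPM in the DDAH1-transgenic libraries (log2 fold change -1.39, -1.34 with the offset). H3f3a, which codes for the replacement histone H3.3, was at 176 and 197 CPM in the wild type libraries and 1033 and 731 CPM in the DDAH1-transgenic libraries, a rise of 2.24 on the log2 scale in both fits. Scgb3a2, a secretoglobin of club cells, rose from 50.4 and 64.6 to 466 and 404 CPM. Flrt2 (Entrez 399558, chromosome 12 from 95692006 to 95785215), a cell surface protein of cell adhesion, had the largest value of the 11, with 29.9 and 22.3 against 307 and 255 CPM (log2 fold change 3.42, standard error 0.24, adjusted p = 0.000132). Flrt2 differed by 3.53 in the PBS-treated groups too, and the difference between the treatments did not pass the test (adjusted p = 0.864).

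**Figure D3:**
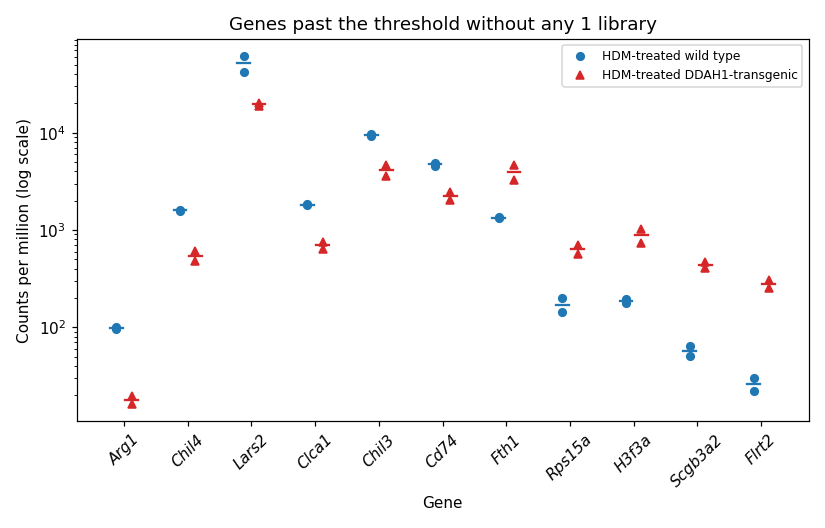
Level in CPM (y axis, log scale) of the 11 genes past the threshold with the length offset whichever library was left out, in the 2 HDM-treated wild type libraries (blue circles) and the 2 HDM-treated DDAH1-transgenic libraries (red triangles), with a line at each group mean. The groups do not overlap for any of the 11 genes, nor do they for 48% of all genes tested.

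The list with the most calls was that of the cytosolic ribosomal proteins, the protein subunits of the ribosome outside mitochondria. Without the offset, 63 of 84 were higher and none was lower, with a median of 1.24 against 0.01 over all genes, and 51 of these calls lay outside the study's top lists. Their summed level was 14042 and 17020.5 CPM in the wild type libraries and 30158 and 36820.2 CPM in the DDAH1-transgenic libraries, so that both DDAH1-transgenic libraries were higher. With the length offset, 26 were higher and 2 were lower, Rpl10 at -0.67 and Rpl10a at -0.83, and the median was 0.76. The 2 lower calls were lost when the coding sequence gave the length. When the longest transcript, the coding sequence or length with GC content gave the offset, the median was 0.84, 0.79 and 0.73. The calls of this list rested on both wild type libraries. Without wild type replicate 1 none of the 84 passed and the median was 1.04, and without wild type replicate 2 there were 6 calls at a median of 1.44. In transcripts under 1000 bases the 55 ribosomal protein genes had a median of 0.77 with the offset, and the 752 genes in no list of ribosomal, respiratory chain, spliceosome or histone proteins had a median of 0.08. Rps12 had 499 and 544 against 1793 and 3418 counts, or 46.7 and 57.3 against 293 and 281 CPM (log2 fold change 2.46, standard error 0.21, adjusted p = 0.000385, and 1.87 with the offset, standard error 0.21, adjusted p = 0.00306). Rps21 had 24.1 and 30.5 against 138 and 166 CPM (log2 fold change 2.48, 1.93 with the offset), Rpl30 153 and 201 against 633 and 899 CPM (2.11, 1.57) and Rpl34 37.5 and 50.5 against 172 and 171 CPM (1.96, 1.37). Outside the top lists, Rps20 was at 262 and 376 against 780.4 and 1058 CPM (1.53, 1.57), Rps25 at 232 and 304 against 689.8 and 891 CPM (1.56, 1.18) and Rpl19 at 219.9 and 244 against 629.9 and 860.3 CPM (1.69, 1.09). The transcript that gave the length of Rps20 has 3706 bases, most of them outside the coding sequence, and with the length of the coding sequence its difference was 1.02. Rpl41, a very small ribosomal protein, was at 455 and 666 against 1134 and 1536 CPM, a rise of 1.25 that did not pass with the offset. Many of these genes have processed pseudogenes. Rpl19 shares 57.4% of its stretches of 50 bases with other transcripts, Rps12 25%, Rps25 12% and Rpl30 10.7%, and reads of such stretches cannot be assigned with certainty.

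Messenger RNAs of ribosomal proteins are known for a run of pyrimidines at their start, through which their translation is regulated together. To see whether the members share it, the start sites in RefSeq (GRCm38.p6) were searched on the strand of the gene for a run of at least 8 C and T bases that begins with C within 5 bases of the annotated start. Of 62 ribosomal protein genes with a sequence, 21 held the run (33.9%), against 580 of 11887 genes tested (4.88%). Of the genes outside this list that were higher in both fits, 5 of 49 held it (10.2%), and of those lower in both fits, 0 of 33. In the ribosomal protein genes the median was 1.28 in the 21 genes with the run and 1.22 in the 41 without it. With the offset the medians were 0.77 and 0.82. A run that begins more than 5 bases from the annotated start was not counted. Rps25, for example, has a stretch of C and T bases further before its start. The 41 genes can therefore include genes with a run, and whether the change follows it cannot be read from these medians. Shown here from 30 bases before to 25 bases from the annotated start are genes that were higher in both fits and hold the run, in capitals, followed by Rps12 and Rps21, which were higher and hold no such run at this start.
Rps15a (chr7:118116123-118116177, minus strand): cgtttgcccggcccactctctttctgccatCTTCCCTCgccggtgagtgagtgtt
Rps27 (chr3:90213624-90213678, minus strand): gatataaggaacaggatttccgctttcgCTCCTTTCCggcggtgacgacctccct
Rplp2 (chr7:141447621-141447675, plus strand): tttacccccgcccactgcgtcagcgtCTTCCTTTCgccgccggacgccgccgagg
Rpl13a (chr7:45128721-45128775, minus strand): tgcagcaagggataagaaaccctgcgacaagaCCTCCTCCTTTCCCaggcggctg
Rpl38 (chr11:114668550-114668604, plus strand): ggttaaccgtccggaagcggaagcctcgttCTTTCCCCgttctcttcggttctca
Rack1 (chr11:48800330-48800384, plus strand): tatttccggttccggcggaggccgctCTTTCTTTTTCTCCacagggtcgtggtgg
Rps12 (chr10:23787185-23787239, minus strand): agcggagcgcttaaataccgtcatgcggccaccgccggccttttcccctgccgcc
Rps21 (chr2:180257349-180257403, plus strand): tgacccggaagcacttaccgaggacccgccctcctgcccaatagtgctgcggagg
In Rack1 the capitals start at the first C within the window searched, and other pyrimidines stand before it. Rpl38 did not pass with the offset when the coding sequence gave the length, nor without DDAH1-transgenic replicate 1. Rack1 codes for a scaffold protein bound to the small ribosomal subunit, and it was not in the list. It was at 124 and 111 CPM in the wild type libraries and 299.6 and 359 CPM in the DDAH1-transgenic libraries (log2 fold change 1.49, standard error 0.20, adjusted p = 0.00249, and 1.17 with the offset, standard error 0.18, adjusted p = 0.0179).

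Other groups of short genes had fewer calls. Subunits of respiratory chain complex I, which takes electrons from NADH, had 5 of 36 members higher and a median of 1.01, and 14 of 39 subunits of complexes III to V were higher with a median of 1.03. With the length offset 1 and 2 of these were higher, with medians of 0.54 and 0.51. Those that passed with it were Ndufa2 at 11.04 and 12.96 against 61.03 and 58.4 CPM, Cox7a2l at 34.4 and 38.2 against 187 and 129 CPM, and Cox17, a copper chaperone of cytochrome c oxidase, at 14.6 and 22.4 against 93.2 and 62.8 CPM. In all 3, each DDAH1-transgenic library was above both wild type libraries, but with the offset Ndufa2 did not pass with thinned counts or without DDAH1-transgenic replicate 1, nor Cox17 with the length of the coding sequence. Of the mitochondrial ribosomal proteins 3 of 78 were higher (Mrps16, Mrpl20 and Mrps28) with a median of 0.68, of the Sm and LSm proteins of the spliceosome 3 of 25 (Snrpd1, Snrpg and Lsm8) with a median of 1.04, and of the proteasome subunits 2 of 38 (Psma3 and Psma5) with a median of 0.57. The shares called of the first and the last, 3.85% and 5.26%, stand beside 1.84% over all genes and 2.82% of those with transcripts of 1000 to 2000 bases, and nothing particular to either list is read from them. None of these 8 genes passed with the length offset, and the medians were then 0.31, 0.83 and 0.30. Their values were uneven between replicates in some cases. Snrpd1 at 12.1 and 12.01 against 80.8 and 36.6 CPM and Ndufb3 at 10.9 and 9.69 against 89.4 and 32.9 CPM were more than 2 times as high in DDAH1-transgenic replicate 1 as in replicate 2. The replication-dependent histones, whose messages are short and end without a poly(A) tail, had values mostly below 0. No histone passed the test in either fit. The median over 55 genes was -0.47, with 5 above 0, and -1.02 with the length offset, with none above 0, or -0.62 with length and GC content in the offset. The value rested largely on DDAH1-transgenic replicate 1, the shallowest library. When no offset was used, the median was -0.08 without that library and -1.09 without replicate 2 of that group. The summed level of the list overlapped between the groups, at 971.2 and 1201.5 against 679.7 and 1052.8 CPM. Near-identical copies share histone reads.

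**Figure D4:**
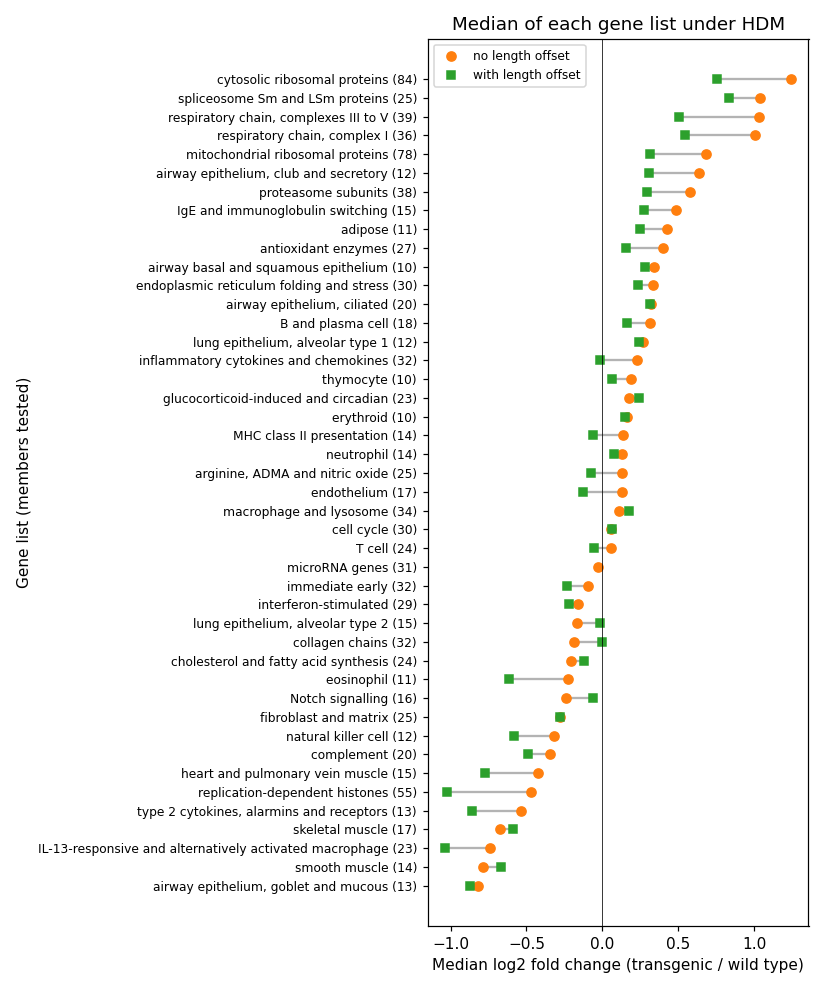
Median log2 fold change under HDM (x axis) of each gene list with at least 8 members tested (y axis, number tested in parentheses), without the length offset (orange circles) and with it (green squares). Without the offset ribosomal proteins are highest at 1.24 and goblet cell genes lowest at -0.82, and with it Sm and LSm proteins are highest at 0.83 and IL-13-responsive genes lowest at -1.04.

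Among genes outside the study's top lists, the 12 higher genes with the smallest p-values in the length-adjusted fit were Fth1, Wdr89, Rps20, Dynlt1c, Gsn, Jchain, Rsrp1, Rpl19, Rps25, Dynlt1a, Rack1 and Tmsb4x. Fth1 (Entrez 14319, chromosome 19 from 9980600 to 9985111), the heavy chain of the iron store ferritin, had 14098 and 12982 against 20132 and 56317 counts, or 1319 and 1368 CPM in the wild type libraries and 3285 and 4638 CPM in the DDAH1-transgenic libraries (log2 fold change 1.56, standard error 0.17, adjusted p = 0.0013, and 1.26 with the offset, standard error 0.13, adjusted p = 0.0022). Its difference in the PBS-treated groups had the opposite sign, at -0.64. Gsn, which codes for the actin-severing protein gelsolin, was at 359 and 350.1 against 749.9 and 785 CPM (1.11, 1.07 with the offset), a narrow range within each group. Jchain, the chain that joins IgA and IgM into polymers, was at 787 and 765 against 1932 and 1836 CPM (1.28, 0.95), and Rsrp1 at 97.5 and 87.99 against 316 and 269.8 CPM (1.66, 1.46). Tmsb4x codes for thymosin beta 4, which binds actin monomers. It was at 1436 and 1754 against 3993 and 4082 CPM, a rise of 1.34 that was 0.77 with the length offset and did not pass with the length of the coding sequence. Wdr89 had 1520 and 2077 against 3362 and 7823 counts. The pseudogene Rplp2-ps1, a gene of the top lists that lies within its span, had 1415 and 1995 against 3268 and 7771 counts. The 2 genes may hold the same reads, so the value of Wdr89 need not be new to those lists. Dynlt1c had 1090 and 1009 against 1648 and 3647 counts and Dynlt1f 1108 and 1022 against 1698 and 3687 counts. Dynlt1a, Dynlt1c and Dynlt1f, light chains of dynein, share 63%, 84.4% and 88.6% of their stretches of 50 bases with other transcripts. Their log2 fold changes were 1.44, 1.45 and 1.46, and the 3 genes may hold the same reads.

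The 12 lower genes under the same rule were Cd74, Lars2, Ifitm3, Pfn1, Tagln2, Igfbp7, Mfap4, Serpina3n, Srgn, Csrp1, Creb3l1 and Cfl1. Cd74 (Entrez 16149, chromosome 18 from 60803849 to 60812652), the invariant chain that guides MHC class II molecules, had 51899 and 43470 against 12620 and 29770 counts, or 4857 and 4580.5 CPM in the wild type libraries and 2059.5 and 2452 CPM in the DDAH1-transgenic libraries (log2 fold change -1.06, standard error 0.14, adjusted p = 0.00233, and -1.39 with the offset, standard error 0.10, adjusted p = 0.000222). In PBS-treated mice the difference was -0.01. Mir5107, a gene of the top lists, lies within the span of Cd74, so the value of Cd74 need not be new to those lists. Ifitm3 and Ifitm2 are membrane proteins that hinder the entry of viruses. Ifitm3 was at 506 and 636 against 302 and 343 CPM (-0.83, -1.42 with the offset) and Ifitm2, a gene of the top lists, at 203 and 269 against 90.9 and 102 CPM (-1.29, -1.89), and 48.5% of the stretches of Ifitm2 occur in other transcripts. Pfn1 and Cfl1 code for profilin and cofilin, which regulate the assembly of actin. Pfn1 was at 465 and 511 against 257 and 279 CPM (-0.87, -1.41) and Cfl1 at 440.1 and 390.0 against 240.2 and 193 CPM (-0.94, -1.01). Neither had overlapping groups, which the rule required. Tagln2, the actin-binding transgelin 2, was at 1811 and 1504 against 794 and 1013 CPM, and Igfbp7, which binds insulin-like growth factors, was at 609 and 758 against 307 and 415 CPM. The remaining 5 fell by between 0.84 and 1.84 on the log2 scale. They were Mfap4 of the microfibrils at 934 and 940.1 against 435 and 576 CPM, the protease inhibitor Serpina3n at 287 and 243 against 119.6 and 137 CPM, the granule proteoglycan Srgn at 292 and 351 against 158 and 189 CPM, Csrp1 at 310.3 and 335 against 162 and 198 CPM and Creb3l1, a transcription factor held in the endoplasmic reticulum, at 43.4 and 72.2 against 16.2 and 16.1 CPM. Of the 24 higher and lower genes of this rule, 19 did not pass with the offset once wild type replicate 1 was left out, and 18 once replicate 2 of that group was. With the length of the coding sequence 3 did not pass, Dynlt1a, Dynlt1c and Tmsb4x.

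Some calls were lost or gained with the length offset. Outside the top lists, the higher genes with the smallest p-values that lost their call with the offset were Dynlt1f, Rpl9, Chchd2 and Rpl39, with transcripts of 612 to 915 bases. Dynlt1f was given a length of 771 bases, against 2589 for Dynlt1c and 3321 for Dynlt1a, which kept their calls. These genes may hold the same reads, so no difference between them is read from this. Chchd2, a protein of mitochondria, was at 145 and 181 against 707 and 421 CPM, a difference of 1.79 that became 1.30 (adjusted p = 0.0556). The lower genes that lost their call with the smallest p-values were Muc5b, Zfhx3, Wasf2 and Spred2, with transcripts of 2852 to 17152 bases. Muc5b, the mucin that is secreted throughout the airways, was at 2386 and 2394 against 1214 and 1489.7 CPM (-0.82, and -0.50 with the offset, adjusted p = 0.105), the transcription factor Zfhx3 at 261 and 263 against 139 and 128 CPM and Wasf2 of actin branching at 226 and 235 against 111 and 128 CPM. Spred2 at 34.5 and 153 against 12.9 and 18.04 CPM was more than 4 times as high in wild type replicate 2 as in replicate 1. Its difference hardly moved with the offset, at -2.59 without and -2.61 with it. The adjusted p of the quasi-likelihood test went from 0.031 to 0.0636. Only 3 higher genes gained a call. Serinc3 was at 1076 and 1051 against 1660.0 and 1578 CPM, Btg1 at 194 and 162 against 306 and 311 CPM and Ctnnb1, beta-catenin, at 464 and 512 against 753 and 804 CPM, with differences of 0.66, 0.93 and 0.71 with the offset. The first 2 did not pass with the length of the coding sequence, nor Ctnnb1 with that of the longest transcript. Of the 27 lower genes that gained a call, those outside the top lists with the smallest p-values were Retnla, Scgb1a1, Ahnak and Sftpb. Scgb1a1, the main secreted protein of club cells, was at 10712 and 12711 against 9747 and 13413 CPM. Its groups overlapped, and its difference was -0.02 without and -0.62 with the offset. The transcript that gave the length of Ahnak has 830 bases while the gene also has a much longer one, and the difference of -0.76 with the offset became 0.13 with the longest transcript, so no change is read from it.

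Several goblet cell and IL-13-responsive genes fell in the DDAH1-transgenic libraries, and none of either list was called higher. Of 13 goblet and mucous genes, 7 were lower and none higher, with a median of -0.82, and with the offset 4 were lower with a median of -0.87. None of the 7 calls stood when either wild type library was left out, and the median was -0.50 without DDAH1-transgenic replicate 1. Of these 7 genes, 5 are in the study's top lists, chosen on the same libraries, so that they are not independent evidence of the direction. Slc26a4, the chloride and bicarbonate exchanger pendrin, was at 192 and 206 CPM in the wild type libraries and 53.2 and 59.3 CPM in the DDAH1-transgenic libraries (log2 fold change -1.82, standard error 0.22, adjusted p = 0.00157). Muc5ac, the mucin of induced goblet cells, was at 273 and 324 against 129 and 128 CPM (-1.22, -0.97, not past the threshold when the coding sequence gave the length) and Fcgbp, which binds mucins, at 87.97 and 90.9 against 18.4 and 40.7 CPM (-1.58, not past the threshold with the offset). Spdef, the factor that drives goblet cell fate, had a difference of 1.54 with a standard error of 1.12 and did not pass the test. In the list of IL-13-responsive genes and genes of alternatively activated macrophages, 6 of 23 were lower and none higher, with a median of -0.74, and all 6 are in the top lists. None of the 6 passed without either of the wild type libraries, and 14 passed at a median of -1.42 without DDAH1-transgenic replicate 2. With the offset 8 were lower and the median was -1.04, and 5 and 3 of these calls were left without wild type replicate 1 and replicate 2. The 2 added genes, both outside the top lists, were Retnla and Ccl17. Retnla, a resistin-like protein of alternatively activated macrophages with a transcript of 599 bases, was at 1651 and 2318 against 1302 and 1653 CPM (-0.43, -1.04 with the offset, adjusted p = 0.00888). Its groups overlapped in CPM but not after the adjustment for length, at 2538 and 3292 against 1381 and 1463, and it did not pass without wild type replicate 2. Ccl17, a chemokine for Th2 cells, was at 53.4 and 41.6 against 12.4 and 22.2 CPM (-1.45, -2.09), beside its neighbour Ccl22 at 50.2 and 56.6 against 12.1 and 18.04 CPM (-1.82, -1.93). Chia1, the acidic chitinase, was at 445 and 582 against 186 and 149.9 CPM. Rnase2a, which the study lists as the eosinophil-associated ribonuclease Ear11, was at 52.7 and 37.8 against 12.7 and 7.41 CPM. Mmp12, a macrophage elastase, differed by -0.74 and did not pass the test in either fit.

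**Figure D5:**
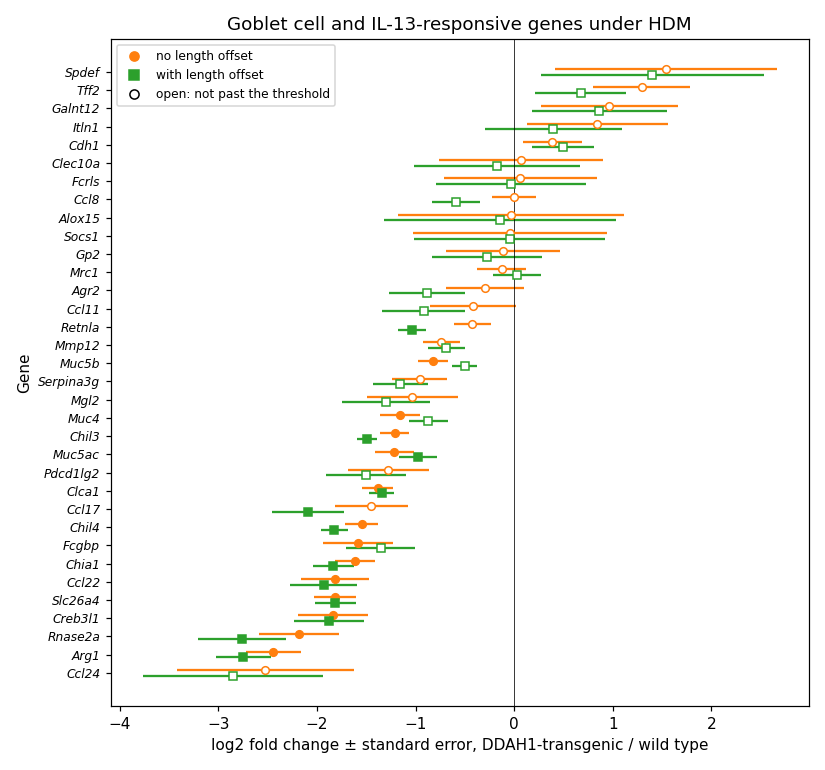
Log2 fold change under HDM with its standard error (x axis) for each tested gene of the goblet cell and IL-13-responsive lists (y axis), without the length offset (orange circles) and with it (green squares). Filled symbols mark genes past the threshold, and all of them lie below 0, from -0.82 for Muc5b to -2.76 for Rnase2a.

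The cytokines at the head of this response were hardly counted. Il13 had 28 and 9 counts in the wild type libraries and 0 and 2 in the DDAH1-transgenic libraries, and Il5 had 7 and 4 against 0 and 0, and neither passed the low-count filter. Il4 had 8 and 48 against 6 and 6 counts, with most of the wild type counts in replicate 2, and did not pass. Of 13 type 2 cytokines, alarmins and receptors tested, Il33 alone passed the test. Il33, an alarmin released by damaged epithelium and a gene of the top lists, was at 623 and 551 against 285 and 267 CPM (-1.09, -1.13), and the median of the list was -0.54, or -0.86 with the offset. Of 11 eosinophil genes none passed without the offset and 1 was lower with it, Ear2 at 180.2 and 189 against 114 and 105 CPM, which shares 41.5% of its stretches with related genes. The eosinophil-associated ribonuclease Rnase2a (Ear11) was counted in the IL-13-responsive list and not in this one, and it was lower in both fits. The defining granule genes were near 0 or uneven. Epx had 1 count in all 4 libraries, and Prg2 had 9 and 70 against 40 and 144 counts. Of 5 mast cell and basophil genes tested none passed (median -0.19), and neither did any of 15 genes of IgE and immunoglobulin switching (median 0.48). The eosinophil genes had a median of -0.23, or -0.61 with the offset.

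In the airway epithelium, club and secretory genes went both ways. Scgb3a2, Selenbp1 and Scgb3a1 were higher and Pigr was lower among 12 tested, with a median of 0.64 (0.30 with the offset). Pigr, the receptor that carries polymeric IgA across the epithelium, was at 253 and 256 CPM in the wild type libraries and 127 and 130.1 CPM in the DDAH1-transgenic libraries (-0.98, -0.93, not past the threshold with the length of the coding sequence). Selenbp1 was at 125 and 112 against 243 and 337 CPM and kept its call with the offset, at 1.07, although 46.3% of its stretches occur in Selenbp2. Scgb3a1, at 79.5 and 107 against 173 and 195 CPM, did not. Of 15 genes of alveolar type 2 cells Sftpd, surfactant protein D, was higher at 309 and 327 against 550.3 and 574 CPM without the offset (0.82, 0.45 with it). Sftpb, surfactant protein B, was lower only with the offset, at 2098 and 2143 against 1105 and 1599 CPM (-0.65, -0.95), and not with the length of the coding sequence. The median of the list was -0.17. None of 12 alveolar type 1, 20 ciliated, 10 basal and squamous or 17 endothelial genes passed in either fit, with medians of 0.27, 0.32, 0.34 and 0.13. The endothelial median was -0.13 with the offset.

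Some genes of plasma cells and lysosomes were higher. Jchain and Mzb1, a chaperone of immunoglobulin assembly, passed in both fits among 18 B and plasma cell genes, and the list summed to 1740.3 and 1636 CPM in the wild type libraries and 2861 and 3012 CPM in the DDAH1-transgenic libraries. Jchain alone made up 787 and 765 against 1932 and 1836 CPM of these sums. Mzb1, a gene of the top lists that shares 53.5% of its stretches of 50 bases with a neighbouring gene, was at 18.6 and 18.97 against 82.9 and 75.4 CPM (2.07, 1.55), and it did not pass with the offset without DDAH1-transgenic replicate 1. The median of the list was 0.31, or 0.16 with the offset. Of 34 macrophage and lysosome genes 8 were higher and 1, the lysosomal mannosidase Man2b2, was lower, at a median of 0.11. Of these 9 only Man2b2 is in the top lists. The 4 that passed in both fits were the proteases Ctss, Ctsd and Ctsl and the cholesterol carrier Npc2. Ctss (cathepsin S), which cleaves the invariant chain Cd74, was at 747 and 758 CPM in the wild type libraries and 1591 and 1659.6 CPM in the DDAH1-transgenic libraries (log2 fold change 1.11, standard error 0.15, adjusted p = 0.00249, and 0.77 with the offset, standard error 0.13, adjusted p = 0.0221). It rose while Cd74 fell, and in the PBS-treated groups it differed by -0.74. Ctsd was at 547 and 657 against 1033 and 1372 CPM (1.00, 0.87), Ctsl at 133 and 153 against 308 and 231 CPM (0.92, 1.10) and Npc2 at 439 and 506 against 764 and 853 CPM (0.77, 0.80). With the length of the coding sequence Ctsl and Npc2 did not pass. The tetraspanin Cd63, Fabp5, Ctsz and Fabp4 were higher without the offset only, and Fabp4, with 191 and 155 against 674 and 407 counts, was at over 3 times the CPM in DDAH1-transgenic replicate 1 as in replicate 2. No other of 14 MHC class II genes than Cd74 and Ctss passed, and the list had a median of 0.13 (-0.06 with the offset).

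Complement genes had a median of -0.34 over 20 tested. Cfb, factor B of the alternative pathway, was higher at 67.01 and 63.4 CPM in the wild type libraries and 218 and 158 CPM in the DDAH1-transgenic libraries (1.52, 1.51), and C3, the central component, was lower at 2474 and 2647 CPM in the wild type libraries and 1294 and 1658 CPM in the DDAH1-transgenic libraries (-0.79, -0.66). Both lie outside the top lists and passed in both fits, though C3 did not pass with the offset when counts were thinned to the smallest library or with a count minimum of 30, the length of the coding sequence or a loess span of 0.3. Of the stretches of Cfb, 73% occur in an overlapping gene model. Of 29 interferon-stimulated genes Ifitm2 and Ifitm3 were lower and no other passed (median -0.16). Among 32 inflammatory cytokines and chemokines Ccl20 and Cxcl3 were higher and Ccl9 was lower, all of them in the top lists, and Ccl20 at 4.77 and 4.95 against 35.4 and 27.5 CPM and Ccl9 at 398 and 465 against 209 and 191 CPM kept their calls with the offset. That of Ccl20 with the offset was lost in 8 of 16 alternatives, such as all 8 libraries in 1 fit, thinned counts or the length of the coding sequence. Of 14 neutrophil genes Fpr2, a receptor for formyl peptides, was higher without the offset at 3.93 and 2.95 against 22.8 and 22.8 CPM. Lcn2, a siderophore-binding protein, was lower with it at 1125 and 933 against 634 and 915 CPM (-0.41, -0.95), where the nearest libraries of the groups differed little, and not with the length of the coding sequence. The medians were 0.23 for the cytokines and 0.13 for the neutrophil genes. No gene passed among 24 of T cells, 12 of natural killer cells and 10 of thymocytes, with medians of 0.05, -0.32 and 0.19.

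In the pathway that DDAH1 belongs to, 25 genes of arginine, ADMA and nitric oxide metabolism were tested. Besides Arg1, which was lower, Oat and Qdpr were higher in both fits, and the median was 0.13 (-0.08 with the offset). Oat, the aminotransferase that takes up the ornithine made by arginase, was at 58.6 and 58.4 CPM in the wild type libraries and 166 and 126 CPM in the DDAH1-transgenic libraries (log2 fold change 1.32, standard error 0.24, adjusted p = 0.0127, and 1.21 with the offset, standard error 0.24, adjusted p = 0.0463) and lies outside the top lists. Qdpr, which recycles the cofactor of the nitric oxide synthases, was at 6.55 and 6.32 CPM in the wild type libraries and 44.6 and 30.1 CPM in the DDAH1-transgenic libraries (2.53, 2.21). With the offset neither Oat nor Qdpr passed without DDAH1-transgenic replicate 1. Antioxidant enzymes moved in both directions. Of 27 tested, Glrx5, Sod1, Gpx4, Prdx1 and Prdx6 were higher and Sod3 was lower. With the offset the peroxiredoxins Prdx1 and Prdx6 remained past the threshold on the higher side, and Sod3 and Glrx on the lower side. Prdx6 was at 211 and 208 against 356 and 459.9 CPM (0.96, 0.89) and Prdx1 at 491 and 578 against 892 and 1012 CPM (0.83, 0.74). With the length of the coding sequence neither passed, and Prdx1 did not pass with the longest transcript, with GC content in the offset or with a count minimum of 30 either. The call of Glrx was lost with the longest transcript. Sod3, the extracellular superoxide dismutase, was at 404 and 372 against 121 and 143 CPM (-1.55, -1.51), and the cytosolic Sod1 at 50.1 and 50.5 against 139.8 and 127 CPM (1.41, 0.81, not past the threshold with the offset).

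Among 30 genes of folding and stress in the endoplasmic reticulum, Sec61b, Sec61g, Spcs1 and Spcs2, subunits of the translocon and the signal peptidase, were higher. Sec61b at 43.05 and 45.9 against 176 and 165 CPM and Sec61g at 22.3 and 26.4 against 75.9 and 72.9 CPM passed in both fits, though Sec61g did not with the offset when the coding sequence gave the length, with thinned counts or without DDAH1-transgenic replicate 1, and the median was 0.33 (0.23). Of 32 immediate early genes Phlda1, Rhob and Dusp8 were lower, all of them in the top lists, and the first 2 kept their calls (median of the list -0.10). Tsc22d3, which glucocorticoids induce, was at 41.5 and 27.8 CPM in the wild type libraries and 131 and 96.1 CPM in the DDAH1-transgenic libraries (1.71, 1.56), and with the offset it did not pass with the length of the coding sequence or without DDAH1-transgenic replicate 1. No other of 23 glucocorticoid-induced and circadian genes passed without the offset (median 0.18). Srebf2, the factor that controls cholesterol synthesis, was lower at 102 and 126 against 33.3 and 42.7 CPM, and no other of 24 genes of cholesterol and fatty acid synthesis passed (median -0.20). Pttg1, the securin of chromosome separation, was higher among 30 cell cycle genes without the offset only (median 0.05), and none of 16 Notch genes passed (median -0.24). The antioxidant list had a median of 0.40.

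The matrix and muscle genes that passed the test were lower. Of 25 fibroblast and matrix genes Col6a2, Col1a1 and Mfap4 were lower (median -0.28), and of 32 collagen chains only Col6a2, at 182 and 160.4 against 65.6 and 72.3 CPM, and Col1a1, at 235 and 209 against 96.8 and 112 CPM, were, the first of them with the offset too (median -0.19). Actg2 was lower in both fits among 14 smooth muscle genes, at 29.9 and 36.9 against 7.51 and 10.8 CPM, but not with the length of the coding sequence, and the list had a median of -0.78. Of 15 genes of heart and pulmonary vein muscle, Corin and Actc1 were lower, and Actc1, cardiac actin, at 92.7 and 78.9 against 19.4 and 30.3 CPM, kept its call with the offset (median -0.43). None of 17 skeletal muscle genes passed (median -0.67), with a summed level of 431 and 428 CPM in the wild type libraries and 285 and 307 CPM in the DDAH1-transgenic libraries. How far the amount of vein, airway wall or adjoining muscle in the pooled tissue contributed was not tested. Fabp4 alone was higher among 11 adipose genes (median 0.42). Hbb-bs, a haemoglobin chain, was higher among 10 erythroid genes (median 0.16) at 389.7 and 486 against 729 and 1085 CPM, without the offset only.

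Rn45S, Lars2 and Mir5109 were lower together in the DDAH1-transgenic libraries. Rn45S, the precursor of the ribosomal RNAs, took 16.7% and 21.5% of the counts in the wild type libraries and 8.58% and 9.37% in the DDAH1-transgenic libraries (log2 fold change -1.29). Lars2 (Entrez 102436, chromosome 9 from 123366927 to 123462675), which codes for the mitochondrial leucyl-tRNA synthetase, had 448200 and 579742 against 124609 and 228731 counts, or 41945 and 61089 against 20335 and 18837 CPM (log2 fold change -1.40, standard error 0.15, adjusted p = 0.00121, and -1.33 with the offset, standard error 0.15, adjusted p = 0.00269). Mir5109 fell with them and had 5616 and 5817 against 755 and 1318 counts (-2.30). In the PBS-treated groups all 3 differed the other way, by 0.80, 0.87 and 1.47. Whether Lars2 and Mir5109 hold reads of ribosomal RNA was not tested. With 10 ribosomal RNA and haemoglobin genes left out of both the library sizes and the test, 351 genes passed, of which 348 were among the 370. Rn45S and Hbb-bs, both among the 370, were left out and so could not pass. Of 31 microRNA genes tested Mir684-1 was higher, at 34.3 and 37.1 against 228 and 83.9 CPM, and Mir5107 was lower, at 443 and 379 against 172 and 206 CPM. Mir684-1 lies within the span of Dusp19, which had 76 and 167 against 66 and 53 counts, and Mir5107 within that of Cd74. Mir5107 fell by 1.12 and Cd74 by 1.06 on the log2 scale, and their reads cannot be told apart where the genes overlap. The microRNA genes had a median of -0.03. None of 7 small nucleolar RNAs tested passed, at a median of -1.14.

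The genotype difference under HDM was set against that under PBS in all 8 libraries. Of 15868 genes 279 differed between the treatments (1.76%), 167 of them with a higher value under HDM. Among the genes called under HDM, those with the smallest p-values were Fth1, Slpi and Scgb3a2 on the higher side and Mir5109, Rn45S and Lars2 on the lower side. Slpi, an inhibitor of leukocyte proteases, was at 305 and 371 against 641 and 829 CPM under HDM (1.12) and differed by -1.50 under PBS. With the length offset its difference under HDM was 0.57 and did not pass. The groups compared across treatments also differ in another way. Xist had 113 to 197 counts in the PBS-treated libraries and 20303 to 31372 in the HDM-treated libraries, and Ddx3y had 621 to 719 counts and 2 or 3 counts, so that the sex of the pooled mice and the treatment cannot be told apart. With the length offset, 208 genes differed between the treatments, and 37.5% of them had a higher value under HDM, against 59.9% without it.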

How the data were processed

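Gene-level read counts were deposited by the authors as whole numbers, not normalized, for 8 libraries of mouse lung RNA. Per the labels and the study's methods, total RNA was amplified with a SPIA kit, sheared cDNA was sequenced as single reads of 50 cycles on a HiSeq, reads were demultiplexed (bcl2fastq, CASAVA 1.8) and aligned with TopHat to mm10 (GRCm38), and reads in coding regions were counted in R. The submitters' processing notes also name DESeq. Whether the counting used strand is not given in the sources used here. The counts were used as deposited, and 0 columns were left unmapped. Totals per library ranged from 5694928 to 11492478, and 3 counts correspond to 0.298 CPM in the wild type and 0.368 CPM in the DDAH1-transgenic HDM libraries (counting error only).

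The 4 HDM libraries were fitted with edgeR 4.0.16 (R 4.3.3) as 2 groups, with filterByExpr at a minimum count of 10, TMM normalization and the quasi-likelihood test. Adjusted p-values (Benjamini-Hochberg, all genes tested) were held to a threshold of 0.05, and standard errors were derived from the F statistic. CPM used TMM-scaled totals. For the length offset, the log2 CPM (prior count of 2) of each gene less its mean over libraries was smoothed against log2 transcript length by loess with a span of 0.5 in each library. Lengths came from GENCODE annotation of GRCm38, 1 transcript per gene (principal isoform where marked). They cover the whole transcript, whereas the study describes counts over coding regions. The length of the coding sequence was used as an alternative only. Symbols were assigned by Entrez number. Of 23469 genes, 23372 were named from RefSeq and 21145 had a length. The difference between treatments was tested as an interaction in all 8 libraries. The start-site search used RefSeq promoters, and stretches of 50 bases were compared between transcripts of different genes to find reads that could be shared.

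The members and the gene lists were chosen with earlier results of these data known. Genes were named by a rule: outside the study's short lists of top genes (60 lower and 60 higher), the 12 higher and 12 lower genes with the smallest p-values with the offset among those called in both fits without overlap, the 4 each that lost or gained a call, up to 4 called members of each list, the 2 most significant genes of those lists per direction and the 3 most significant per direction of the interaction. Other genes were named after their values were seen. The scripts were tested on simulated counts. Alternatives tried were RLE size factors, DESeq2 1.42.0, other filters, all libraries in 1 fit, a replicate block and thinned depth. Further ones were 1 gene per set of identical counts, and ribosomal RNA and haemoglobin genes left out of the totals and the test. The rest were a minimum log2 fold change of 1, each library left out, and other lengths, spans and GC content in the offset. The 2 libraries of each group were not 1 library deposited again (mean chi-square per gene between them 25.9 in wild type and 29.5 in DDAH1-transgenic libraries).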

Additional observations from a re-analysis of the deposited data

Results flagged for a closer look

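The genotype difference was tested for a change between the HDM-treated and PBS-treated groups as an interaction in edgeR's quasi-likelihood test. The 30 genes examined were those chosen by p-value, outside or within the study's top lists, rather than as members of a gene list. Of these, 25 passed an adjusted p of 0.05, against 279 of 15868 genes tested (1.76%). Among 125 named genes 65 passed. These were the genes of the rule that were called under HDM in either fit, with Ddah1, Ddah2, Xist, H3f3a and Rps15a added. Genes named by the rule for their level alone were not counted. Values are the log2 fold change of the genotype under HDM less that under PBS, without the length offset. The Spearman correlation of the genotype difference with transcript length was -0.28 under HDM and 0.02 under PBS, so these values also hold the change with length. Below 0 were Mir5109 at -3.81, Lars2 at -2.31, Rn45S at -2.12, Chil4 at -1.90, Igfbp7 at -1.36, Serpina3n at -1.28, Csrp1 at -1.17, Ifitm3 at -1.11, Cd74 at -1.09, Tagln2 at -0.94 and Mfap4 at -0.91. Above 0 were Scgb3a2 at 2.68, Slpi at 2.58, Fth1 at 2.16, Rpl19 at 1.76, Wdr89 at 1.67, Dynlt1a at 1.67, Jchain at 1.66, Rsrp1 at 1.64, Dynlt1c at 1.63, Rps20 at 1.48, Rack1 at 1.38, Rps25 at 1.37, Tmsb4x at 1.18 and Gsn at 0.99. The genes had been chosen for their difference under HDM, which the interaction shares. Fth1, Slpi, Scgb3a2, Mir5109, Rn45S and Lars2 were chosen by the p-value of the interaction itself, so that they passed follows from the choice. The number that passed is a description only. Xist counts of 113 to 197 in the PBS-treated and 20303 to 31372 in the HDM-treated libraries stand beside these values, and sex and treatment cannot be told apart.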

How the results depend on the processing

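For the genotype under HDM, against 370 calls without the offset, 1055 genes passed with no low-count filter, 771 with all 8 libraries in 1 fit (57.1% higher, against 75.4%), 890 with DESeq2 and 6 to 1595 with 1 library left out. Against 166 calls for the genotype under HDM with length offset these were 778, 494 and, with 1 library left out, 19 to 999. Against 279 genes in the genotype by treatment interaction, 675 passed with no filter and 138 to 723 with 1 library left out. The lowest counts came without wild type replicate 1 (6), without wild type replicate 2 with the offset (19) and without PBS-treated wild type replicate 2 in the interaction (138), and the highest without HDM-treated DDAH1-transgenic replicate 2. The cause was not tested. Apart from the replicate block given below, all other alternatives gave a count within 1.5 times the main one. The 370 and the 166 genes had the same sign in every fit with 1 library left out. For the 370, which had no overlap between the groups, this largely follows from the choice of called genes and is not further support.

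With a replicate block, 625 genes passed for the genotype under HDM, 484 for the genotype under HDM with length offset and 363 for the genotype by treatment interaction. The replicate numbers did not pair the libraries, since deviations from the group means correlated at 0.003 over 11942 genes between libraries of the same number, so these fits are given only here.

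Signs turned for values that had not passed the test or that depended on the length used. Without 1 library, Scgb1a1 ranged from -0.27 to 0.19, Xist from -0.40 to 0.20, and with the offset from -0.11 to 0.57, and Ddah2, with length offset, from -0.43 to 0.20. With the length of the coding sequence, Ddah2 was 0.060 and Rpl41 was -0.34 with the offset. With length and GC content Ddah2 was 0.012, and with the longest transcript Ahnak was 0.13. Of the remaining values of named genes, 3230 had the same direction and side of the threshold, 374 no longer passed and 185 newly passed. With 2 libraries from 1 pool in each group, the technical spread between libraries and the change with transcript length limit these comparisons.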
